A study of Homo sapiens with 24 samples.

Results

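The miR-30 family was followed through small RNA libraries of SBC-3, a human small cell lung cancer line, in which the nuclear proteins SFPQ or NONO or the long noncoding RNA NEAT1 had been targeted. The 10 members were chosen by their mature miRNA identifiers from the 2652 mature miRNAs in the count tables. The 5p products are miR-30a-5p (MIMAT0000087), miR-30b-5p (MIMAT0000420), miR-30c-5p (MIMAT0000244), miR-30d-5p (MIMAT0000245) and miR-30e-5p (MIMAT0000692). The 3p products are miR-30a-3p (MIMAT0000088), miR-30b-3p (MIMAT0004589), miR-30c-2-3p (MIMAT0004550), miR-30d-3p (MIMAT0004551) and miR-30e-3p (MIMAT0000693). All 10 passed the filter on low counts, as did 626 of the 2652 in all. miR-30c-1-3p, the remaining product of the family's hairpins, is given with its values but is not counted as a member.

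All 24 libraries came from unedited SBC-3 cells, labelled wild type, harvested 72 h after reverse transfection with a lipid carrier and 10 nM of one oligonucleotide. There were 8 groups of 3 libraries. Small interfering RNAs made up 5 groups: the control siCtrl, siSFPQ-2 with siSFPQ-3, which target SFPQ, and siNONO-3 with siNONO-4, which target NONO. Antisense oligonucleotides made up 3 groups: the control ASO-Ctrl, and ASO-NEAT1-1047 with ASO-NEAT1-1473, which target NEAT1. No group was left untransfected, and every group rests on a single cell line. The labels do not say whether the 3 libraries of a group came from separate cultures, so the p-values measure only the spread between these libraries, which may be technical. Small RNA tables hold no SFPQ, NONO or NEAT1 transcripts, so the knockdowns could not be checked here.

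A miRNA is cut from a hairpin by Drosha and Dicer, which leaves one product from the 5p arm and one from the 3p arm. Usually 1 arm, the guide, is kept in an Argonaute protein and pairs with messenger RNAs through its seed, bases 2 to 8, while the other, the passenger, is largely degraded. In the miR-30 family the 5p products are the main guides. They share a seed, are made in most tissues, and are known for restraining epithelial-mesenchymal transition, autophagy genes such as BECN1 and connective tissue growth factor. SFPQ and NONO are partner proteins that bind nucleic acids and belong to paraspeckles, nuclear bodies that assemble on NEAT1.

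The sequences are shown because they decide which members can be told apart and which targets they can share. They are those of RefSeq on GRCh38.p14, written 5′ to 3′ with the seed in capitals, and were found for 6 members and for miR-30c-1-3p. miR-30b-5p, miR-30b-3p, miR-30d-5p and miR-30d-3p are named only.
miR-30a-5p: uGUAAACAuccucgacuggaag
miR-30e-5p: uGUAAACAuccuugacuggaag
miR-30c-5p: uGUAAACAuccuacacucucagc
miR-30a-3p: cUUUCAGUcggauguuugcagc
miR-30e-3p: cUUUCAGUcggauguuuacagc
miR-30c-2-3p: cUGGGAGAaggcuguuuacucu
miR-30c-1-3p: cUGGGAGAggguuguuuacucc

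The products with a sequence shown fell into 3 seed groups. Among these the 5p seed GUAAACA was carried by miR-30a-5p, miR-30e-5p and miR-30c-5p. No other of the 2370 mature miRNAs in that RefSeq set carried it. The set held no miR-30b or miR-30d products, so their seeds were not compared. The passengers miR-30a-3p and miR-30e-3p shared UUUCAGU. The 3p products of both miR-30c hairpins shared UGGGAGA, a seed also found in miR-6788-5p. Counted from 1 at the 5′ end, miR-30a-5p and miR-30e-5p differed by C13U alone, and miR-30a-3p and miR-30e-3p by G18A alone. miR-30c-5p differed from miR-30a-5p at 5 of 22 compared bases, all after the seed (C13A, G14C, G18C, G19U and A20C).

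The family comes from 6 hairpins in 3 pairs (coordinates of the tables, hg38). On chromosome 1, plus strand, MIR30E (40754355 to 40754446) and MIR30C1 (40757284 to 40757372) lie in an intron of NFYC, which encodes a subunit of the CCAAT-binding factor NF-Y, with 2837 bases between them. On chromosome 6, minus strand, MIR30A (71403551 to 71403621) and MIR30C2 (71376960 to 71377031) lie in introns of the noncoding genes LINC00472 and AL136164.2, 26519 bases apart. On chromosome 8, minus strand, MIR30B (134800520 to 134800607) and MIR30D (134804876 to 134804945) lie 4268 bases apart, with no gene annotated over them on their strand.

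Counts did not separate all members. In every library miR-30a-5p, miR-30d-5p and miR-30e-5p had counts within 0.257% to 2.78% of each other, although their hairpins lie on 3 chromosomes. miR-30a-3p and miR-30e-3p lay 3.40% to 5.73% apart. The 2 loci of miR-30c-5p differed by 0.0184% to 0.193%, and its chromosome 6 locus, which had the larger total, was kept. The 10 members thus amount to at most 7 values that can be told apart. miR-30a-5p stands below for the 3 leading guides and miR-30a-3p for itself and miR-30e-3p. miR-30d-3p had 31.0% to 49.6% of the miR-30a-3p count and was kept as a separate value. Unequal counts exclude only complete sharing, and whether part of their reads is common was not tested. The log2 levels of this pair correlated at r = 0.98 over the 24 libraries and at 0.967 within groups. For miR-30c-5p and miR-30b-5p these correlations were 0.876 and 0.88.

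Libraries held 2038382 to 4279644 miRNA counts, with 927 to 1220 miRNAs detected and 45784 to 136178 spike-in counts. Levels are counts per 1000000 (CPM) on library sizes scaled by trimmed means of M values (TMM). Members are 22 or 23 bases long, so CPM needs no length correction between them. The siSFPQ libraries had TMM factors of 1.09 to 1.36, against 0.846 to 1.03 in the other 18. A pair of libraries stood apart from their groups on the second principal component. These were siCtrl replicate 1, at 11.7 against -8.18 and -7.74, and ASO-NEAT1-1047 replicate 3, at 10.2 against -7.75 and -3.38. Other groups were split on this component too. In replicates 1 to 3, ASO-Ctrl lay at -4.46, 5.67 and 5.17 and siNONO-4 at -3.92, 4.72 and 6.86. Counts and arm ratios that rest on siCtrl are given with and without its replicate 1.

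Of the neuroendocrine and neural markers, miR-9-5p (46767 to 106856 CPM) and miR-7-5p (6849 to 19907) were abundant, whereas miR-375-3p, a pulmonary neuroendocrine marker, lay at 0.257 to 8.55 CPM, miR-153-3p at 0.749 to 5.83 and miR-124-3p at 0 to 1.41. Summed over these 5 markers, the level was 98805 to 112790 CPM in siCtrl, 59647 to 79168 in siSFPQ-2 and 58213 to 71317 in siSFPQ-3. It was 91147 to 117685 in siNONO-3, 94153 to 114439 in siNONO-4, 94493 to 105525 in ASO-Ctrl, 96766 to 116915 in ASO-NEAT1-1047 and 104794 to 112620 in ASO-NEAT1-1473. The sum, most of it miR-9-5p, was thus lower in all siSFPQ libraries. It says little of the 3 scarce markers. The sums of other lists were lower there too. The 3 muscle markers summed to 332 to 390 CPM in siCtrl, 113 to 202 in siSFPQ-2 and 134 to 188 in siSFPQ-3. The 2 mesenchyme markers summed to 137 to 166, 80.9 to 100.3 and 91.2 to 105. The endothelial miR-126-3p lay at 792 to 849, 572 to 664 and 544 to 618 CPM. Of 6 blood cell markers, miR-142-3p was present at 23.5 to 151 CPM and miR-142-5p at 2.25 to 19.4, miR-486-5p had 0 counts in every library, and miR-223-3p, miR-451a and miR-150-5p reached at most 5 counts. Their sum was 50.1 to 104 CPM in siCtrl, 64.9 to 66.6 in siSFPQ-2 and 27.7 to 59.5 in siSFPQ-3. The part of these lists in the results below was not tested. The liver and serum marker miR-122-5p had 0 counts throughout. In bulk RNA, fewer cells that make a miRNA and less of it per cell cannot be told apart.

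In siCtrl the members spanned more than 3 orders of magnitude. miR-30a-5p stood at 13362 ± 1389 CPM (SD, n = 3), the 24th highest miRNA, and miR-30e-5p and miR-30d-5p, which share its reads, were 25th and 26th. miR-30c-5p followed at 2495 ± 408 CPM (54th). The passengers miR-30a-3p and miR-30e-3p came next at 1211 ± 371 and 1151 ± 363 CPM (73rd and 78th). miR-30b-5p (544 ± 225 CPM) and miR-30d-3p (499 ± 244) lay within each other's spread at ranks 99 and 101. miR-30c-2-3p stood at 48.4 ± 21.5 CPM (251st) and miR-30c-1-3p at 18.3 ± 6.57 (316th). miR-30b-3p was near the limit of detection at 2.66 ± 0.378 CPM, with 0 to 15 counts in any of the 24 libraries. Its 1 library without a count, siNONO-3 replicate 2, allows up to 1.35 CPM on its unscaled total, so changes of that product were hardly measurable at this depth.

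Between libraries the leading guides varied least. From the lowest to the highest of the 24, miR-30a-5p covered 12189 to 19576 CPM, a 1.61-fold range. miR-30a-3p covered a 2.12-fold range, miR-30c-5p 2.78-fold, miR-30b-5p 2.93-fold, miR-30d-3p 3.33-fold and miR-30c-2-3p 4.02-fold.

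**Figure D1:**
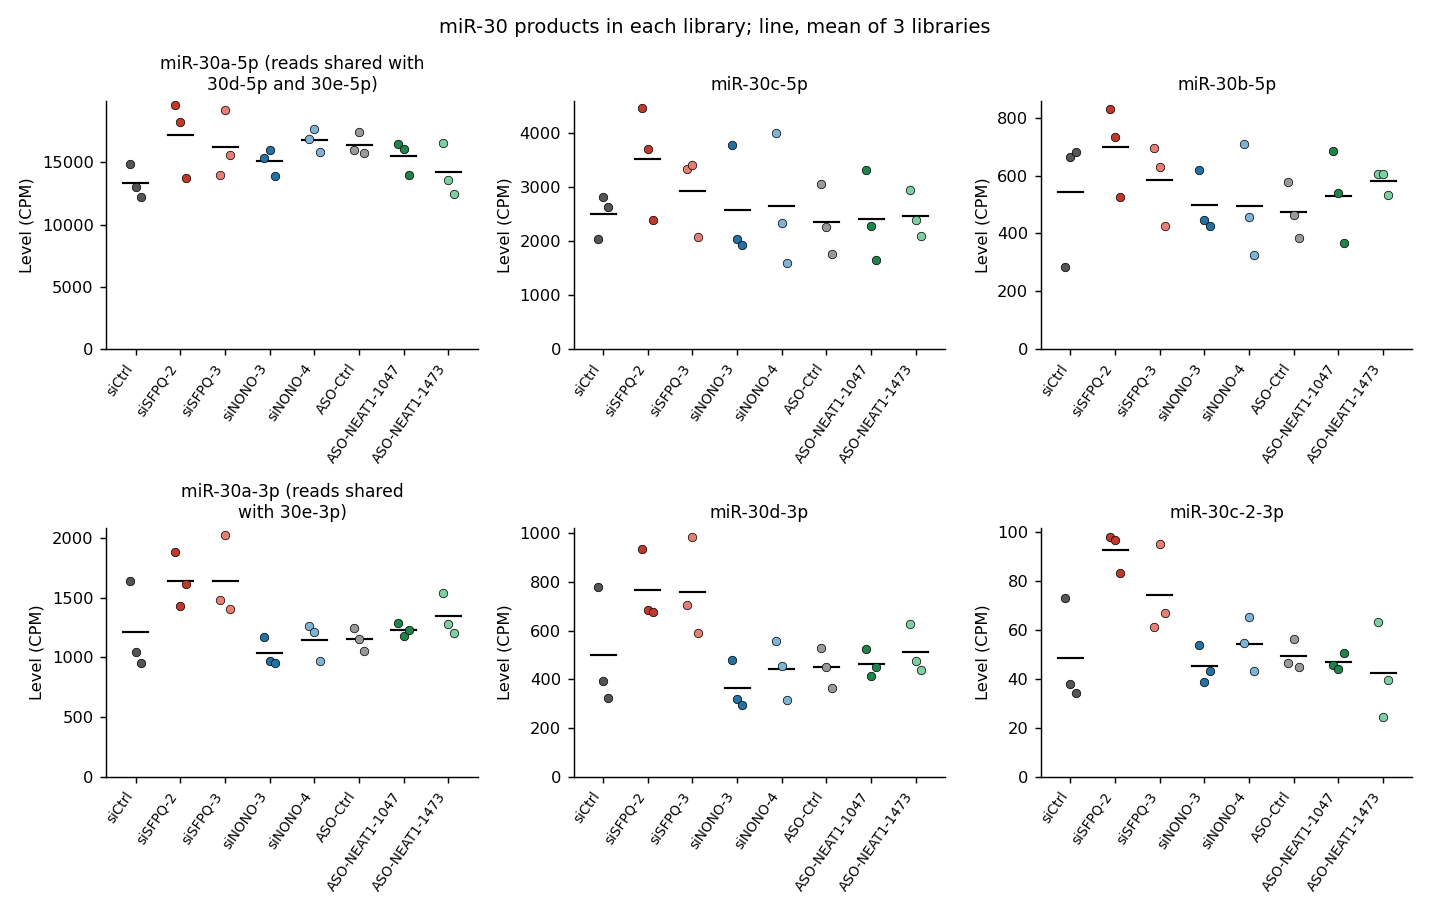
Level (CPM, linear axis from 0) of 6 miR-30 products in each of the 24 libraries. Points are libraries, coloured by group, and lines are means of 3. miR-30d-3p and miR-30a-3p lie higher in all 6 siSFPQ libraries than in all 6 siNONO libraries, and siCtrl replicate 1 (the first point of its group) lies above the other siCtrl libraries for the 3p products and below them for miR-30b-5p.

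The first comparison asked whether the family's levels change when SFPQ is depleted, 6 siSFPQ libraries against 3 of siCtrl. The members that passed were 3 passengers: miR-30c-2-3p with a log2 fold change of 0.77 ± 0.26 (SE), miR-30e-3p with 0.45 ± 0.18 and miR-30a-3p with 0.44 ± 0.18. The passengers miR-30d-3p and miR-30b-3p did not pass. Nor did the main guides, with 0.32 ± 0.14 for miR-30a-5p, 0.36 ± 0.29 for miR-30c-5p and 0.23 ± 0.27 for miR-30b-5p. Their side of the threshold does not show that passengers and guides differ. The ratio of the arms, given below, called no family hairpin against siCtrl with all libraries. These are folds of 1.71, 1.37 and 1.35 for the 3 passengers and 1.25 for miR-30a-5p.

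The passengers' values in each library were as follows. miR-30a-3p stood at 1636, 1044 and 953 CPM in siCtrl replicates 1 to 3, at 1880.0, 1434 and 1615 in siSFPQ-2 and at 1484, 2026 and 1406 in siSFPQ-3. miR-30c-2-3p was at 73.1, 37.9 and 34.1 CPM in siCtrl, at 97.8, 96.9 and 83.5 in siSFPQ-2 and at 61.1, 95.1 and 66.9 in siSFPQ-3. For both products siCtrl replicate 1 lay inside the siSFPQ range, and the other siCtrl libraries lay below all 6 siSFPQ libraries. miR-30d-3p, at 778, 395 and 324 CPM in siCtrl, was at 933, 684 and 678 in siSFPQ-2 and at 704, 985 and 592 in siSFPQ-3. It showed the same overlap and just missed the threshold (0.61 ± 0.26, adjusted p = 0.0541).

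Among the guides, miR-30a-5p stood at 14895, 13001 and 12189 CPM in siCtrl, at 19576, 18232 and 13758 in siSFPQ-2 and at 14014, 19225 and 15568 in siSFPQ-3. Of the 6 siSFPQ libraries, 4 lay above all siCtrl libraries and 2 lay below siCtrl replicate 1. miR-30c-5p was at 2036, 2819 and 2629.5 CPM in siCtrl, at 4455, 3709.8 and 2383 in siSFPQ-2 and at 3329, 3409 and 2067 in siSFPQ-3. Again 4 siSFPQ libraries lay above all siCtrl libraries, and the other two lay within their range. miR-30b-5p was at 284, 665 and 683 CPM in siCtrl, at 832, 734 and 527 in siSFPQ-2 and at 694, 628 and 428 in siSFPQ-3. Here siCtrl replicate 1 was the lowest of all 24 libraries, the opposite side from its passenger values.

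With edgeR's quasi-likelihood test and p-values adjusted by Benjamini-Hochberg across 626 miRNAs (threshold 0.05), 3 of the 10 members were higher and 0 lower, where 25.6% of all tested miRNAs were higher and 22.7% lower. The members' share of increases was thus near the background. The adjusted p was 0.0187 for miR-30c-2-3p, 0.0388 for miR-30e-3p and 0.0439 for miR-30a-3p, against 0.0571 for miR-30a-5p, 0.322 for miR-30c-5p, 0.510 for miR-30b-5p and 0.705 for miR-30b-3p. All 10 fold changes were positive, with a median of 0.34 against 0.018 over all tested miRNAs. An unadjusted p under 0.05 was reached by 7 members, and by 334 of all 626 miRNAs. The same 3 siCtrl libraries enter each of these fold changes. miR-30c-1-3p, outside the 10, rose by 0.62 ± 0.24 (adjusted p = 0.0406). No member had all 6 siSFPQ libraries above all 3 siCtrl libraries, which 19.8% of tested miRNAs did.

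The count rested on single libraries. Without siCtrl replicate 1, 7 members were higher, with log2 fold changes of 1.21 for miR-30c-2-3p, 1.0997 for miR-30d-3p, 0.73 for miR-30a-3p and 0.42 for miR-30a-5p, and miR-30b-5p turned to -0.0604. Without siCtrl replicate 2 or without siCtrl replicate 3 none passed, and miR-30a-3p stood at 0.34 (adjusted p = 0.184) and 0.29 (adjusted p = 0.230), miR-30c-2-3p at 0.62 (adjusted p = 0.1097) and 0.58 (adjusted p = 0.116). Of the 626 miRNAs, 165 were higher and 121 lower without siCtrl replicate 1, and the median over all was then 0.17. Without siCtrl replicate 2, 138 were higher, and without siCtrl replicate 3, 138. Without siSFPQ-2 replicate 1 or without siSFPQ-3 replicate 2 the count of members was 1, where 152 and 153 of all 626 were higher. Fitted on the compared groups alone, the count of members was 0, where 139 of all 626 were higher and 97 lower.

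**Figure D2:**
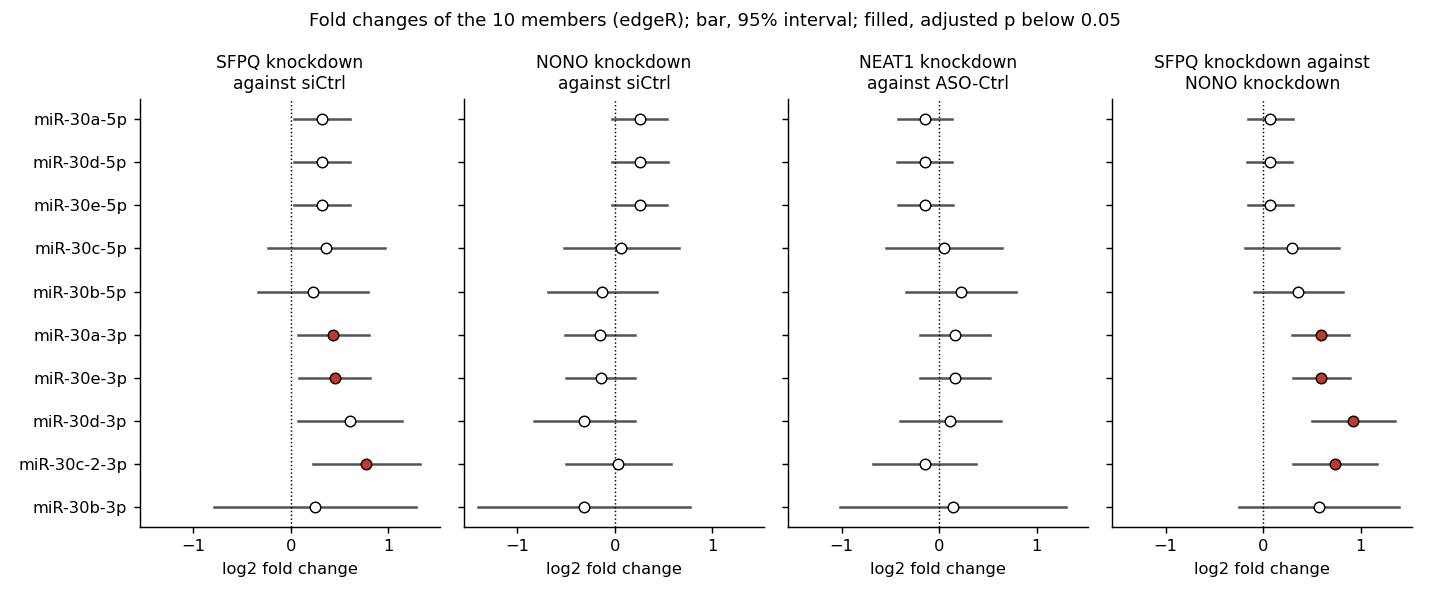
Log2 fold changes of the 10 members (points) with 95% intervals (bars) from edgeR in 4 comparisons; filled points have an adjusted p below 0.05. The 5p guides lie near 0.07 to 0.36 in SFPQ against NONO without passing, and 4 passengers lie between 0.59 and 0.92.

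The count also moved with the scaling of the libraries. On library totals 8 members were higher and on spike-in totals 7, but all miRNAs moved with them: the median over all tested miRNAs was 0.47 and 0.21 on these scales, and 40.3% and 29.1% of all were higher. With the size factors of DESeq2 in edgeR (RLE) 1 member passed, where 24.6% of all were higher. Relative to the median of all tested miRNAs, the members' median was higher by 0.33 with TMM. A change of scaling shifts members and median alike, so this distance is nearly fixed by construction.

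**Figure D3:**
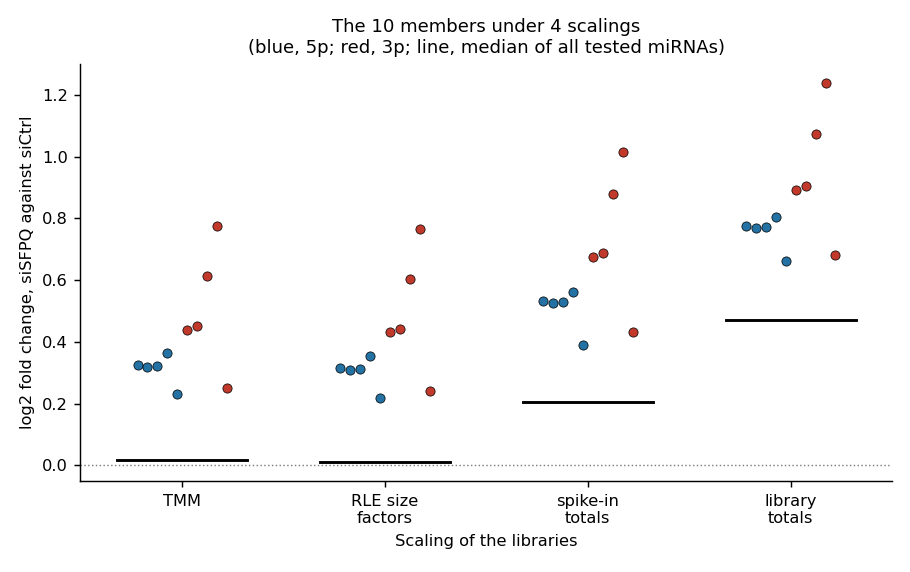
Log2 fold change of each member, siSFPQ against siCtrl, under 4 scalings of the libraries (blue, 5p products; red, 3p products; black line, median of the 626 tested miRNAs). The line moves from 0.018 with TMM to 0.47 on library totals, and by construction the members move with it.

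Taken one at a time, the siRNAs against SFPQ gave few calls. With siSFPQ-2, 1 member was higher by edgeR, miR-30c-2-3p (0.93 ± 0.30, adjusted p = 0.0176), where 23.2% of all were higher and 15.5% lower. With siSFPQ-3, 0 members passed by edgeR or by DESeq2, where 22.7% of all were higher and 21.7% lower. An unadjusted p under 0.05 was reached there by 4 members, and by 316 of all 626 miRNAs. With this siRNA miR-30c-2-3p stood at 0.62 ± 0.30 (adjusted p = 0.0965). miR-30a-3p was at 0.44 ± 0.20 with each siRNA. Without siCtrl replicate 1, 4 members were higher with each siRNA, the passengers miR-30a-3p, miR-30e-3p, miR-30d-3p and miR-30c-2-3p. Of 626 miRNAs, 141 were then higher and 91 lower with siSFPQ-2, and 144 higher and 113 lower with siSFPQ-3. The medians over all tested miRNAs were 0.18 and 0.16. Tested against each other, the siRNAs differed in 0 members by edgeR and by DESeq2, with 0 at an unadjusted p under 0.05 (background 0% higher and 0.639% lower with siSFPQ-3). The 95% interval of that difference ran from -0.41 to 0.41 for miR-30a-3p and from -0.92 to 0.28 for miR-30c-2-3p.

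The siSFPQ and siNONO libraries were compared directly, 6 against 6, to ask whether loss of either partner protein leaves the family at the same level. Passengers were higher with SFPQ targeted: miR-30d-3p by 0.92 ± 0.21 on the log2 scale (a fold of 1.90), miR-30c-2-3p by 0.74 ± 0.21 (1.67), miR-30e-3p by 0.60 ± 0.14 (1.51) and miR-30a-3p by 0.59 ± 0.14 (1.51). miR-30a-5p differed by 0.07 ± 0.11, with a 95% interval of -0.16 to 0.30. This comparison needs no control library.

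In the siNONO libraries miR-30a-3p stood at 1174, 969.7 and 955 CPM with siNONO-3 and at 1262, 1209.8 and 972 with siNONO-4, so that every siSFPQ library, from 1406 upward, lay above every siNONO library. miR-30d-3p was at 480.4, 318 and 296 CPM with siNONO-3 and at 556, 454 and 317 with siNONO-4, and again all 6 siSFPQ libraries, from 592 upward, lay above. miR-30c-2-3p was at 53.9, 38.8 and 43.1 CPM with siNONO-3 and at 54.5, 65.2 and 43.3 with siNONO-4. For that product 5 of the 6 siSFPQ libraries lay above all siNONO libraries, and siSFPQ-3 replicate 1, at 61.1, lay below the highest siNONO library. The guide miR-30a-5p was at 15361, 15965 and 13919 CPM with siNONO-3 and at 16901, 17715 and 15859.8 with siNONO-4, within the range of the siSFPQ libraries.

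By edgeR's quasi-likelihood test 4 of 10 members were higher and 0 lower, where 29.7% of all tested miRNAs were higher and 26.8% lower. The adjusted p was 0.000570 for miR-30d-3p, 0.000986 for miR-30e-3p, 0.00103 for miR-30a-3p and 0.00414 for miR-30c-2-3p. It was 0.614 for miR-30a-5p, 0.289 for miR-30c-5p (0.30 ± 0.23) and 0.172 for miR-30b-5p (0.36 ± 0.22). miR-30b-3p, at 0.57 ± 0.40 (adjusted p = 0.230), has too few counts for this size to be resolved. The 3 members miR-30a-3p, miR-30e-3p and miR-30d-3p had every siSFPQ library above every siNONO library, as had 19.5% of all tested miRNAs. miR-30c-1-3p, outside the 10, was higher by 0.57 ± 0.19 (adjusted p = 0.0138). On library totals 9 members were higher and on spike-in totals 7, where 41.1% and 36.4% of all tested miRNAs were higher. The medians over all tested miRNAs were then 0.33 and 0.26. Leaving out any 1 library gave 4 or 5 members.

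The count of a 3p product relative to 5p counts of the same library does not depend on library scaling. Because miR-30a-5p, miR-30d-5p and miR-30e-5p hold a common pool of reads, the values that follow set each 3p product against that pool and are not shares within 1 hairpin. With SFPQ targeted, miR-30a-3p made up 8.76%, 7.29% and 10.5% of miR-30a-3p plus miR-30a-5p counts in siSFPQ-2 and 9.58%, 9.53% and 8.28% in siSFPQ-3. With NONO targeted it made up 7.10%, 5.73% and 6.42% in siNONO-3 and 6.95%, 6.39% and 5.77% in siNONO-4. Every siSFPQ library was thus above every siNONO library, as it was for 13.4% of the 157 hairpins tested below. Wilson 95% intervals of these shares were at most 0.329 percentage points to either side, and cover counting error only.

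miR-30d-3p, from another chromosome, showed the same order. Its share with miR-30d-5p was 4.66%, 3.70% and 4.82% in siSFPQ-2 and 4.87%, 4.96% and 3.76% in siSFPQ-3, against 3.09%, 2.00% and 2.13% in siNONO-3 and 3.24%, 2.54% and 1.99% in siNONO-4. The mean was 4.46% ± 0.574 (SD, n = 6) against 2.50% ± 0.556, and for miR-30a-3p 8.99% ± 1.13 against 6.39% ± 0.572. Both shares rest on the same pool of 5p reads, and some 3p reads may be common too, so they are not independent cases.

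The log2 ratio of 5p to 3p was tested with limma over the 157 hairpins whose arms are each annotated at 1 locus and passed the filter, with 0.5 added to each count. For MIR30A, MIR30D and MIR30E the 5p side is the common pool. MIR30A and MIR30E share most of their 3p reads too, so the 3 hold at most 2 separable values. Between SFPQ and NONO knockdown, 3 of the family's 4 entries shifted toward 3p, MIR30D by -0.88 ± 0.17 (SE, limma adjusted p = 0.000361), MIR30A by -0.53 ± 0.11 (adjusted p = 0.000599) and MIR30E by -0.53 ± 0.11 (adjusted p = 0.000636). Over all hairpins 22.3% shifted toward 3p and 11.5% toward 5p, with a median of -0.15. An exact two-sided permutation test of the 12 libraries gave an unadjusted p = 0.00216 for each of the 3, the smallest that its 924 splits can give, in a family of 16 such tests. MIR30B, whose 3p product is nearly absent, did not pass (-0.50 ± 0.55, limma adjusted p = 0.520). The 3 shifts passed under each alternative run, between -0.79 and -0.98 for MIR30D when any 1 library was left out.

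**Figure D4:**
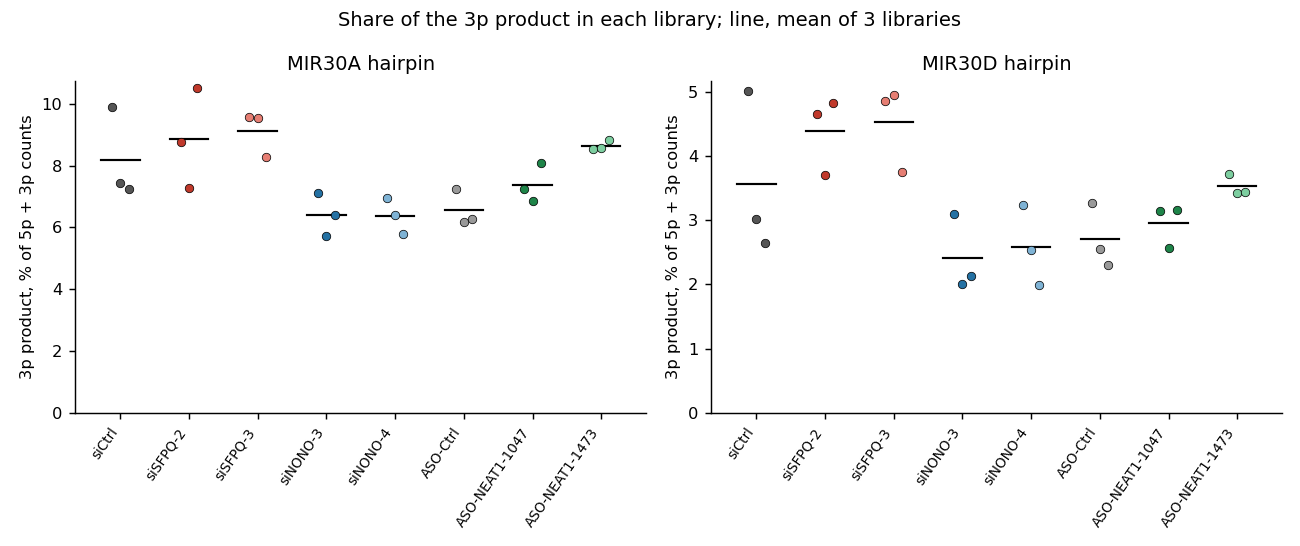
3p product as a percentage of 5p plus 3p counts listed for MIR30A (left) and MIR30D (right) in each library (linear axes from 0); lines are means of 3, and the 5p counts of both are a common pool of reads. The siSFPQ libraries (7.29% to 10.5% for MIR30A) lie above all siNONO libraries (5.73% to 7.10%), and siCtrl replicate 1 lies far above the other siCtrl libraries.

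Against siCtrl the same ratio gave 0 called family hairpins for SFPQ knockdown by limma (0 by the permutation test), where 17.2% of all hairpins shifted toward 3p and 6.37% toward 5p. MIR30D stood at -0.38 ± 0.20 (limma adjusted p = 0.187) and MIR30A at -0.15 ± 0.13 (adjusted p = 0.410), with 0 at an unadjusted p under 0.05. The share of miR-30a-3p was 9.90%, 7.43% and 7.25% in siCtrl and that of miR-30d-3p 5.02%, 3.02% and 2.65%, so that siCtrl replicate 1 had the highest miR-30d-3p share of all 24 libraries. Without this library MIR30D passed (-0.67, limma adjusted p = 0.0197) and MIR30A stood at -0.31 (adjusted p = 0.0899). These are the strong ends of the range when any 1 library was left out. At the weak ends MIR30D stood at -0.19 and MIR30A at -0.0635. Taken alone, siSFPQ-2 and siSFPQ-3 each gave 0 family hairpins (0 at an unadjusted p under 0.05), where 12.7% and 13.4% of all hairpins shifted toward 3p and 6.37% and 3.18% toward 5p. Without siCtrl replicate 1 each gave 1, MIR30D, at -0.65 (adjusted p = 0.0475) and -0.69 (adjusted p = 0.0325). The siRNAs differed from each other in 0 family hairpins (0 unadjusted, backgrounds 0% and 0.637%). For NONO knockdown MIR30A stood at 0.38 ± 0.13, MIR30E at 0.37 ± 0.13 and MIR30D at 0.50 ± 0.20, on the side of 5p. Each had an unadjusted limma p under 0.05, as had 15 of all 157 hairpins, and an adjusted p = 0.322. After adjustment 0 of 157 hairpins passed (0% in each direction). By the exact two-sided permutation test MIR30A and MIR30E had an unadjusted p = 0.0119, the smallest that 84 splits can give, and MIR30D p = 0.107. Without siCtrl replicate 1 the values were 0.22 for MIR30A, 0.1994 for MIR30E and 0.21 for MIR30D, and 0 had an unadjusted limma p under 0.05. Both siRNA comparisons share the siCtrl libraries.

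NONO knockdown called no member against siCtrl. By edgeR 0 of 10 passed, with 0 at an unadjusted p under 0.05 and 0 by DESeq2, where 0.958% of all tested miRNAs were higher and 0.639% lower. miR-30a-5p was at 0.25 ± 0.14 (adjusted p = 0.526), with 5 of 6 siNONO libraries above all siCtrl libraries, miR-30a-3p at -0.15 ± 0.17 and miR-30d-3p at -0.31 ± 0.25. Without siCtrl replicate 1 the count was again 0, and miR-30a-3p stood at 0.14, miR-30d-3p at 0.175 and miR-30a-5p at 0.36 (adjusted p = 0.213). miR-30c-5p stood at 3777, 2036 and 1931 CPM with siNONO-3 and at 3997, 2338 and 1602 with siNONO-4. Of these, 2 libraries lay above and 3 below all siCtrl libraries. The SD of miR-30c-5p was 1037 CPM in siNONO-3 and 1227 in siNONO-4, against 408 in siCtrl, the narrowest of the 8 groups. It was 1050 in siSFPQ-2, so a wide spread was not particular to NONO knockdown. siNONO-3 and siNONO-4 each gave 0 by edgeR and by DESeq2 (backgrounds 1.92% and 0.799% higher, 0.639% and 0.16% lower), also without siCtrl replicate 1 by edgeR. With siNONO-3 0 members, and with siNONO-4 3, had an unadjusted p under 0.05. These 3 were the guides that share reads, with miR-30a-5p at 0.33 ± 0.16. The 2 siRNAs differed from each other in 0 members by edgeR and by DESeq2 (0 unadjusted, background 0%).

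NEAT1 knockdown called no member against ASO-Ctrl either. By edgeR 0 of 10 passed, 0 at an unadjusted p under 0.05 and 0 by DESeq2, where 0% of all tested miRNAs passed in either direction. miR-30a-5p stood at 15976, 17449.7 and 15775 CPM in ASO-Ctrl, at 16501, 16051 and 13968 with ASO-NEAT1-1047 and at 16544, 13619 and 12446 with ASO-NEAT1-1473. Its fold change was -0.14 ± 0.14, with a 95% interval of -0.42 to 0.14, and 3 of 6 libraries lay below all ASO-Ctrl libraries. miR-30a-3p was at 1248, 1152 and 1055 CPM in ASO-Ctrl, at 1289, 1179.95 and 1228 with ASO-NEAT1-1047 and at 1543, 1279.6 and 1206 with ASO-NEAT1-1473. Its fold change was 0.16 ± 0.17 (-0.20 to 0.52), and 3 of 6 libraries lay above all ASO-Ctrl libraries. miR-30d-3p, at 530.5, 451 and 365 CPM in ASO-Ctrl, was at 526, 413 and 449 and at 627, 474 and 436 in the same order, with 1 library above (0.12 ± 0.25). Each oligonucleotide on its own, and the pair set against each other, gave 0 by edgeR, 0 unadjusted and 0 by DESeq2 (background 0%).

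The share of miR-30a-3p with miR-30a-5p in these groups was 7.25%, 6.19% and 6.27% in ASO-Ctrl, 7.25%, 6.85% and 8.08% with ASO-NEAT1-1047 and 8.53%, 8.59% and 8.83% with ASO-NEAT1-1473. All 3 ASO-NEAT1-1473 libraries lay above all ASO-Ctrl libraries, as they did for 10.8% of the 157 hairpins. The pooled log2 ratio of MIR30A shifted by -0.31 ± 0.13 (limma unadjusted p = 0.0278, adjusted p = 0.831), and with ASO-NEAT1-1473 alone by -0.43 ± 0.15 (unadjusted p = 0.00928, adjusted p = 0.410). Neither passed, and 0 of the 157 hairpins did (0% in each direction). An unadjusted limma p under 0.05 was reached by 6 of all hairpins in the pooled comparison and by 13 with ASO-NEAT1-1473 alone.

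The change with SFPQ knockdown did not differ detectably from that with NEAT1 knockdown. As an interaction in edgeR, 0 of 10 members passed (4 at an unadjusted p under 0.05, 0 by DESeq2), where 12.1% of all were higher and 11.3% lower. The difference was 0.92 ± 0.36 (95% interval 0.17 to 1.67, adjusted p = 0.0679) for miR-30c-2-3p and 0.47 ± 0.19 (0.07 to 0.87, adjusted p = 0.0788) for miR-30a-5p. The count of 0 rests on siCtrl replicate 1 as well. It was 7 without that library, where 116 of all 626 miRNAs were higher and 86 lower. The median over all tested miRNAs was 0.059 with that library and 0.23 without it. For the arm ratio the same difference gave 0 family hairpins by limma (0 unadjusted, and 0 without siCtrl replicate 1), where 7.64% of all hairpins shifted toward 3p and 3.82% toward 5p. Between ASO-Ctrl and siCtrl 0 members differed by edgeR (0 unadjusted, 0 by DESeq2), where 0.479% of all were higher and 0% lower. Without siCtrl replicate 1 the count was again 0.

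The ratio of the lesser guides to the leading ones varied widely between libraries of the same group, and the library numbered 1 had the highest miR-30c-5p ratio in 7 of 8 groups, siCtrl being the exception. Per 100 miR-30a-5p counts there were 13.7, 21.7 and 21.6 of miR-30c-5p in siCtrl, 22.8, 20.3 and 17.3 in siSFPQ-2 and 23.8, 17.7 and 13.3 in siSFPQ-3. In siNONO-3 there were 24.6, 12.8 and 13.9, and in siNONO-4 23.7, 13.2 and 10.1. The 3 ASO-NEAT1-1473 libraries, at 17.8, 17.5 and 16.8, lay closest together. Over all 24 libraries the ratio ran from 10.1 to 24.6, with group means of 14.4 ± 4.19 (ASO-Ctrl, SD, n = 3) to 20.1 ± 2.72 (siSFPQ-2), a distance smaller than the range within siNONO-3 or siNONO-4.

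**Figure D5:**
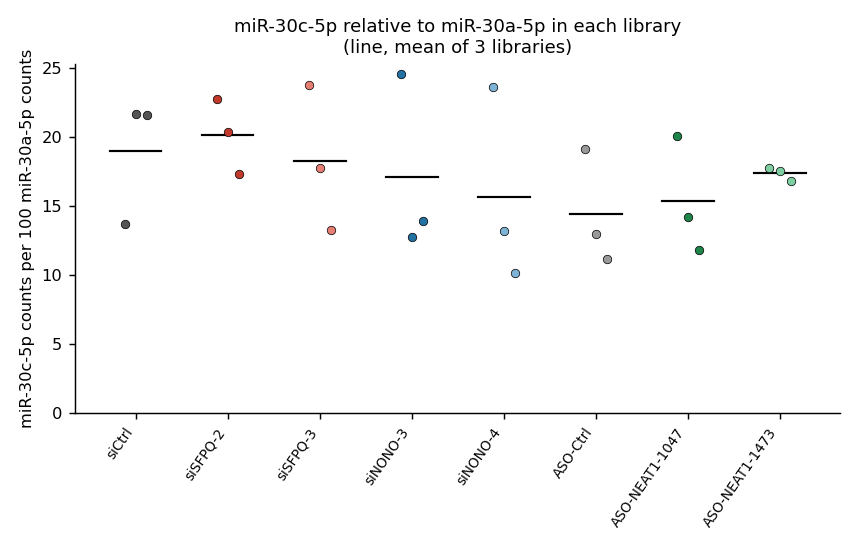
miR-30c-5p counts per 100 miR-30a-5p counts in each library (linear axis from 0); lines are means of 3. The ratio spans 10.1 to 24.6, and the groups overlap.

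miR-30b-5p, encoded beside MIR30D, kept a narrower ratio to miR-30c-5p than to the guides that share reads. Per 100 miR-30a-5p counts there were 1.91, 5.11 and 5.60 of it in siCtrl, which hold the lowest and the 2 highest values of all 24 libraries, and 2.06 to 4.95 elsewhere. Per 100 miR-30c-5p counts there were 13.9, 23.6 and 25.98 in siCtrl, 16.4 to 22.1 in the other siRNA groups and 18.9 to 25.5 in the antisense groups. siCtrl replicate 1 was thus the lowest library on both ratios.

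The passenger of MIR30C2 is set beside its guide as a description only, because miR-30c-5p comes from 2 hairpins. There were 2.70 ± 0.625 miR-30c-2-3p counts per 100 miR-30c-5p in the 6 siSFPQ libraries and 2.07 ± 0.613 (SD, n = 6) in the 6 siNONO libraries. The ranges, 1.83 to 3.50 and 1.36 to 2.79, overlapped, and siCtrl replicate 1 was higher than all of them at 3.59, with 1.34 and 1.298 in the other siCtrl libraries.

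Other families that are widely expressed or restrain epithelial-mesenchymal transition or matrix production moved in several directions with SFPQ knockdown by edgeR. Of all tested miRNAs 25.6% were higher and 22.7% lower. Of the miR-200 family, which targets ZEB1 and ZEB2, 4 of 5 were higher (miR-141-3p 2.93 ± 0.25, adjusted p = 2.34e-09), with a median of 2.57. All 9 let-7 guides, tumour suppressors that share many reads, were lower (let-7a-5p -0.88 ± 0.21, adjusted p = 0.00136), as were both miR-133 guides of muscle (miR-133a-3p -0.87 ± 0.26, adjusted p = 0.00756). Of the collagen-restraining miR-29 family 1 of 3 was lower and 0 higher (miR-29c-3p 0.05 ± 0.12), and of miR-26 0 of 2 passed (miR-26a-5p -0.21 ± 0.12, adjusted p = 0.158). With NONO or NEAT1 knockdown 0 members of these 5 lists passed. Few or none of all tested miRNAs did: 0.958% were higher and 0.639% lower with NONO knockdown, and 0% with NEAT1 knockdown.

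Group means of the summed levels of miR-30a-5p, miR-30b-5p and miR-30c-5p covered 0.36 on the log2 scale over the 8 groups. Among 385 other miRNAs at a mean of at least 10 CPM, those with the most similar pattern over the 8 group means were miR-23c (Pearson r = 0.85), miR-192-3p (0.83), miR-582-3p (0.82), miR-125a-5p (0.82) and miR-1301-3p (0.81).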

How the data were processed

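Small RNA from 24 SBC-3 libraries in 8 groups was counted. The authors deposited raw counts for each miRNA locus and spike-in, from featureCounts per the file headers. Tools listed in the submitters' processing notes are UMI-tools 1.1.1, Bowtie 1.3.0, Subread 2.0.3, Trimmomatic 0.39 and DESeq2 1.38.1, with build hg38. The sources used here do not say whether molecular identifiers were collapsed, so intervals cover counting error only. Per the labels' protocols, 100 ng of RNA received spike-ins.

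Of 2883 loci, the one with the largest total was kept for each of 2652 mature miRNAs. Loci were matched by position, within 3 bases, to RefSeq mature miRNAs (2357) or to hairpins (285), and 10 stayed unnamed. Counts were tested with edgeR 4.0.16 (filterByExpr, minimum count 10; TMM; 1 term per group; 16 residual degrees of freedom; R 4.3.3), arm ratios with limma 3.58.1, and both were tested on simulated data. A knockdown is the mean of its 2 reagents against the matching control. Alternatives included DESeq2 1.42.0, other scalings and filters, the replicate number as a term and leaving out each library. All members are named, with miR-30c-1-3p, up to 2 examples a list (highest mean CPM) and the 5 miRNAs most alike over group means. The members and lists were chosen with earlier results of these data known.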

Additional observations from a re-analysis of the deposited data

How the results depend on the processing

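Of 334 alternative counts of called members or hairpins, 293 stayed within 1.5 times the reported count. These include counts of 0 that stayed at 0, so the tally does not measure how stable the SFPQ counts are. Of 1050 alternative values of single members or hairpins 943 kept their direction and their side of the threshold. For SFPQ knockdown the count of 3 became 1 with RLE, 8 on library totals, 7 on spike-in totals, 7 when loci were summed, 0 with only the compared groups and 7 without both libraries that stand apart, an alternative chosen after seeing the data; leaving out 1 library gave 0 to 7. Of all 626 miRNAs, 173 were higher in that comparison when loci were summed and 170 without both libraries. For siSFPQ-2 the count of 1 became 7 on library totals and 0 with only the compared groups. It was 7 without both libraries (0 to 4 when 1 was left out). In the same order 220, 76 and 154 of all 626 were higher. For siSFPQ-3 the count of 0 became 7 on library totals, 7 on spike-in totals and 2 at a mean of at least 10 CPM. It was 4 with summed loci and 7 without both libraries (0 to 4). Of all tested miRNAs, 234 and 205 of 626, 87 of 395, and 159 and 152 of 626 were higher in the same order. For SFPQ against NONO knockdown the count of 4 became 9 with library totals and 7 on spike-in totals (4 to 5). For the SFPQ against the NEAT1 effect the count of 0 became 7 on library totals, 1 on spike-in totals, 1 with summed loci and 7 without both libraries (0 to 7). The arm ratio count for SFPQ knockdown went from 0 to 1 without both libraries (0 to 1), and unadjusted exact permutation tests gave 2 hairpins for NONO and 1 for NEAT1 knockdown where limma gave 0. The remaining counts, of 0, stayed at 0, and the arm ratio count of 3 for SFPQ against NONO stayed at 3, under each alternative run. The cause of these changes was not tested.

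Libraries with the same replicate number share only a number in the labels. The deviations of same-numbered libraries from their group means had correlations from -0.42 to 0.62, over 0.1 in 52 of 84 pairs, in 47 of 63 without siCtrl and in 1 of 6 between siCtrl and the siSFPQ groups, against 37 of 168 pairs with different numbers. All same-numbered correlations passed 0.1 in 6 of 28 pairs of groups, none of them with siCtrl, a hint from the data, not the design. With the replicate number as a block, the pairing tried gave 7 members for SFPQ knockdown and 7 for siSFPQ-2. It gave 3 for siSFPQ-3 and 4 for the SFPQ against the NEAT1 effect. In the same order 168, 158, 150 and 93 of all 626 miRNAs were higher. No other count changed by over 1.5 times. miR-30c-5p in NONO knockdown turned to -0.058 under the block.

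Signs that turned all belonged to values that passed in neither fit. Without both libraries that stand apart, miR-30b-5p stood at -0.0604 in SFPQ knockdown, miR-30a-3p at 0.14, miR-30e-3p at 0.16, miR-30d-3p at 0.175 and miR-30c-5p at -0.0469 in NONO knockdown, miR-30b-3p at -0.21 in NEAT1 knockdown and the MIR30B ratio at -0.13 in SFPQ knockdown. In NONO knockdown miR-30c-5p was -0.0256 on spike-in totals and -0.057 at a mean of at least 10 CPM, and miR-30c-2-3p was -0.0188 with RLE, -0.0164 on spike-in totals, -0.0654 at a mean of at least 10 CPM, -0.0022 with only the compared groups and -0.019 with DESeq2. The MIR30B ratio between SFPQ and NONO knockdown was 0.0852 with a pseudocount of 5. Leaving out 1 library gave -0.0604 to 0.43 for miR-30b-5p in SFPQ knockdown; in NONO knockdown -0.30 to 0.14 for miR-30a-3p, -0.29 to 0.16 for miR-30e-3p, -0.55 to 0.175 for miR-30d-3p, -0.18 to 0.20 for miR-30c-5p, -0.43 to 0.0668 for miR-30b-5p and -0.15 to 0.48 for miR-30c-2-3p; in NEAT1 knockdown -0.12 to 0.28 for miR-30c-5p, -0.0118 to 0.25 for miR-30d-3p and -0.23 to 0.65 for miR-30b-3p; and -0.0043 to 0.13 for miR-30d-5p in SFPQ against NONO knockdown. The MIR30B ratio ran from -0.15 to 0.42 in SFPQ, -0.19 to 0.41 in NEAT1 and -0.82 to 0.016 in SFPQ against NONO knockdown. Depth limits miR-30b-3p most, at 0 to 15 counts.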
